A study of Mus musculus with 24 samples.

Results

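Lung tumours labelled L858R+T790M were compared with normal lungs labelled FVB, 5 arrays against 5, which are 10 of the 24 arrays of the study. The arrays were taken by their titles and strain label, with no measured value in that rule. Earlier results of these data were known when the arrays and gene lists were chosen. The tumours were nodules, seen by eye and cut out, from bitransgenic mice of strain FVB that had been on a doxycycline diet for 3 to 6 months. L858R is an activating change in the kinase domain of the epidermal growth factor receptor (EGFR), and T790M, in the same domain, is known for resistance to EGFR inhibitors. The normal lungs came from littermates that carried no transgene or a single transgene and were also on doxycycline, so the diet is shared by both groups. The other 14 arrays (5 T790M tumours of strain FVB, 4 L858R tumours and 5 normal lungs of the strain label FVB mixed) entered the shared estimate of the spread and 2 comparisons between tumour groups. Whole nodules and whole lung pieces were pulverized, so each array reads a mixture of cell types. The labels name neither the promoter that drives the transgenes nor which single transgene a normal littermate carried, and they do not give the animal, the sex, the age or a batch of an array. P-values therefore measure the spread between these samples, and n is the number of arrays.

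EGFR is a receptor tyrosine kinase of epithelial cells that is switched on by ligands cut from the cell surface, among them epiregulin, heparin-binding EGF, betacellulin, epigen and transforming growth factor alpha. It pairs with its relatives ERBB2 and ERBB3 and signals through the RAS-ERK cascade, whose own target genes (the DUSP phosphatases and the SPRY and SPRED proteins) damp the cascade. In the lung alveolus, type 2 cells make surfactant and replace the thin type 1 cells that cover the capillaries, and a transitional state rich in keratin 8 lies between them. Doxycycline-induced mouse models of mutant EGFR drive a human EGFR transgene in lung epithelial cells and form adenocarcinomas.

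Values are log2 array signals, 1 probe set per gene, and differences are log2 tumour minus normal ± SE from limma with 19 residual degrees of freedom. "Rose" and "fell" mean an adjusted p under 0.05 (Benjamini-Hochberg over 18193 genes). Values of single arrays are given in the order of replicates 1 to 5, and a level is not compared between genes. The mouse Egfr gene itself was probed by 7 probe sets. The brightest differed by -0.01 ± 0.06 (adjusted p = 0.956), with FVB normals at 9.18, 9.16, 9.20, 9.0 and 9.02 and tumours at 9.03, 9.12, 9.13, 9.09 and 9.16, ranges that overlapped. Of the other 6, dimmer, probe sets 2 fell and 4 did not pass the test. Whether any of these mouse probe sets detects the transgene was not tested, so Egfr does not check the labels here.

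In all, 6594 of 18193 genes (36.2%) passed the test, 3671 higher (20.2%) and 2923 lower (16.1%), and the median log2 difference over all genes was 0.026. The 10 arrays did not overlap between the groups for 5417 genes (29.8%). Most of the rises were small: 2210 of the 3671 were under 1.5-fold, against 1269 of the 2923 falls. Large changes were more often falls, with 584 genes at least 2-fold higher (3.21%) and 956 at least 2-fold lower (5.25%), and 35 at least 8-fold higher (0.192%) against 60 at least 8-fold lower (0.330%). Array medians lay between 8.04 and 8.18. As a check on RNA quality, the signal of the 3-prime Gapdh control less that of the 5-prime one was -0.12 ± 0.06 in tumours and -0.15 ± 0.04 in normals (SD, n = 5; exact two-sided permutation p = 0.3889). The list counts that follow are set against the shares of 20.2% higher and 16.1% lower. The lists were chosen with earlier results of these data known, so an excess over these shares is a description.

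**Figure D1:**
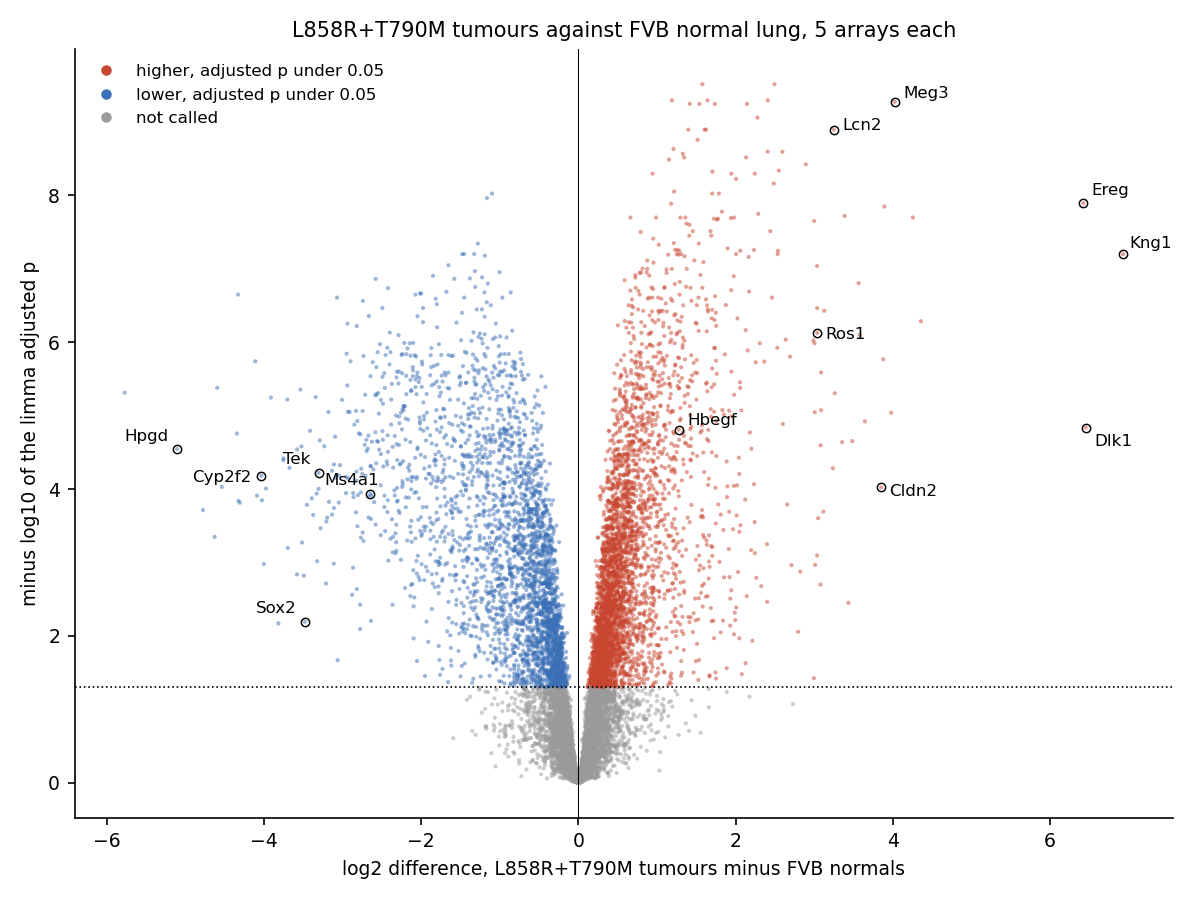
Each point is 1 of 18193 genes: the log2 difference between 5 L858R+T790M tumours and 5 FVB normals (horizontal axis) and minus log10 of the limma adjusted p (vertical axis), with genes of the text named. The 3671 higher calls are dense close to 0, while the 2923 lower calls reach further out, with 60 genes at least 8-fold lower against 35 at least 8-fold higher.

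Of 6 measured EGFR ligands 5 rose and 0 fell, with a median difference of 0.97 beside 0.026 over all genes. Epiregulin (Ereg) read 6.09, 5.01, 4.96, 4.95 and 5.27 in the FVB normals and 12.45, 11.45, 10.87, 11.73 and 11.91 in the tumours, an 86-fold difference (6.43 ± 0.52, adjusted p = 1.28e-08). Every tumour lay above every normal by more than 4 units, and tumour 3 was the lowest of the tumours. Hbegf, the heparin-binding ligand, read 9.18, 8.90, 9.32, 8.90 and 8.62 in normals and 10.35, 9.89, 10.38, 10.30 and 10.38 in tumours (1.28 ± 0.19). The 5 tumours were within 0.5 units of each other, and none overlapped a normal. Betacellulin (Btc) rose by 1.05 ± 0.22, with normals at 7.28 to 8.05 and tumours at 8.33 to 9.44, and epigen (Epgn) by 0.88 ± 0.14, with normals at 6.79 to 6.98 and tumours at 7.36 to 8.23. In both, tumours 1 and 4 were the highest of the 5. Tgfa, transforming growth factor alpha, rose by 0.64 ± 0.15, with tumours at 9.33 to 10.01 and normals at 8.68 to 9.32. Its nearest arrays were 0.01 apart, and with the median over its probe sets the difference was 0.22 (adjusted p = 0.0615). Egf differed by 0.36 ± 0.23 (adjusted p = 0.237), with tumour 5 inside the range of the normals.

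Of the 4 receptors 3 rose: Erbb3, the kinase-poor partner, by 1.04 ± 0.18, Erbb2 by 0.72 ± 0.09 and Erbb4 by 0.22 ± 0.06, a call that was lost with all 10 normal lungs as the control group (0.10, adjusted p = 0.222). Erbb3 read 9.47, 9.19, 9.29, 8.99 and 9.04 in normals and 10.27, 10.55, 10.13, 10.25 and 9.99 in tumours, and Erbb2 8.36, 8.34, 8.47, 8.23 and 8.28 against 8.94, 9.27, 9.04, 9.12 and 8.89. Tumour 2 was the highest and tumour 5 the lowest for both, and neither gene's ranges overlapped. Among 9 genes that damp or turn over the receptors, the inhibitor Errfi1 (MIG6) rose by 1.24 ± 0.20 and Lrig3 fell by 0.93 ± 0.11. The other 7, among them the ubiquitin ligases Cbl and Cblb and the receptor inhibitor Lrig1, did not pass the test.

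Negative feedback genes of the ERK cascade rose in 9 of 13 and fell in 3 (median 0.53). Dusp4, an ERK phosphatase of the nucleus, read 8.21, 8.38, 8.44, 8.81 and 8.31 in normals and 10.39, 11.51, 10.24, 10.81 and 9.48 in tumours (2.06 ± 0.26), and its tumours spanned about 2 units, from tumour 5 at the low end to tumour 2 at the high end. Spred1, which holds back RAF, rose by 1.65 ± 0.17 with normals at 9.74 to 10.17 and tumours at 11.24 to 12.03. Dusp6, the cytoplasmic ERK phosphatase, was tight: normals were at 11.70, 11.90, 11.63, 11.52 and 11.88 and tumours at 12.67, 12.85, 12.46, 12.78 and 12.68 (0.96 ± 0.13). Spry2, Dusp5 and Spry4 rose by 0.85, 0.65 and 0.61. Dusp1, the stress-induced phosphatase, went the other way by -1.42 ± 0.30, with tumours at 10.92 to 12.23 and normals at 12.53 to 13.09.

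Among 17 transcription factors that ERK signalling is known to induce, 5 rose and 3 fell, with a median of 0.28. Those that rose were Egr2 (1.58 ± 0.16), the PEA3-family factors Etv4 (1.46 ± 0.23) and Etv5 (0.63 ± 0.15), Myc (1.13 ± 0.13) and Junb (0.74 ± 0.16). Myc was even across tumours, at 8.55, 8.73, 8.41, 8.65 and 8.68, against 7.51, 7.56, 7.50, 7.50 and 7.32 in normals. The immediate early genes Fos (-0.20 ± 0.41, adjusted p = 0.75), Egr1 (0.49 ± 0.48, adjusted p = 0.47) and Ier2 (-0.06 ± 0.14, adjusted p = 0.77) did not pass the test, and their ranges overlapped between the groups. Jun fell by 1.11 ± 0.23 and Klf4 by 2.31 ± 0.35, with normals at 11.54 to 12.22 and tumours at 8.86 to 10.17. Klf6 fell by 0.59 ± 0.17, a call lost with the median over its probe sets (-0.54, adjusted p = 0.053).

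Of 26 other receptor tyrosine kinases 5 rose and 14 fell. Ros1, an orphan receptor kinase, was the largest rise: normals were at 5.18, 5.61, 5.58, 6.07 and 5.69 and tumours at 8.57, 9.79, 8.62, 8.74 and 7.60 (3.04 ± 0.34, 8.21-fold), with tumour 5 lowest and tumour 2 highest. Epha2 rose by 0.78 ± 0.12 and Fgfr2, the receptor that drives alveolar epithelial growth, by 0.81 ± 0.24, although tumour 5 (10.71) lay below the normals. Met, the receptor of hepatocyte growth factor, rose by 0.59 ± 0.19 and Insr, the insulin receptor, by 0.25 ± 0.09. The call of Met was lost without FVB normal replicate 3 (0.54, adjusted p = 0.0521) or L858R+T790M replicate 2 (0.39, adjusted p = 0.0735) and that of Insr without FVB normal replicate 1, 2, 3 or 4 or L858R+T790M replicate 2, 3 or 4 (0.18 to 0.26, adjusted p = 0.05 to 0.127), so 3 of the 26 rose without FVB normal replicate 3 or L858R+T790M replicate 2. Those that fell included the vessel receptors Tek (-3.31), Tie1 (-2.31), Kdr (-2.05) and Flt1 (-1.59), the stem cell factor receptor Kit (-2.83), the collagen receptor Ddr2 (-2.02) and the fibroblast growth factor receptors Fgfr3 (-1.89) and Fgfr4 (-1.58).

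**Figure D2:**
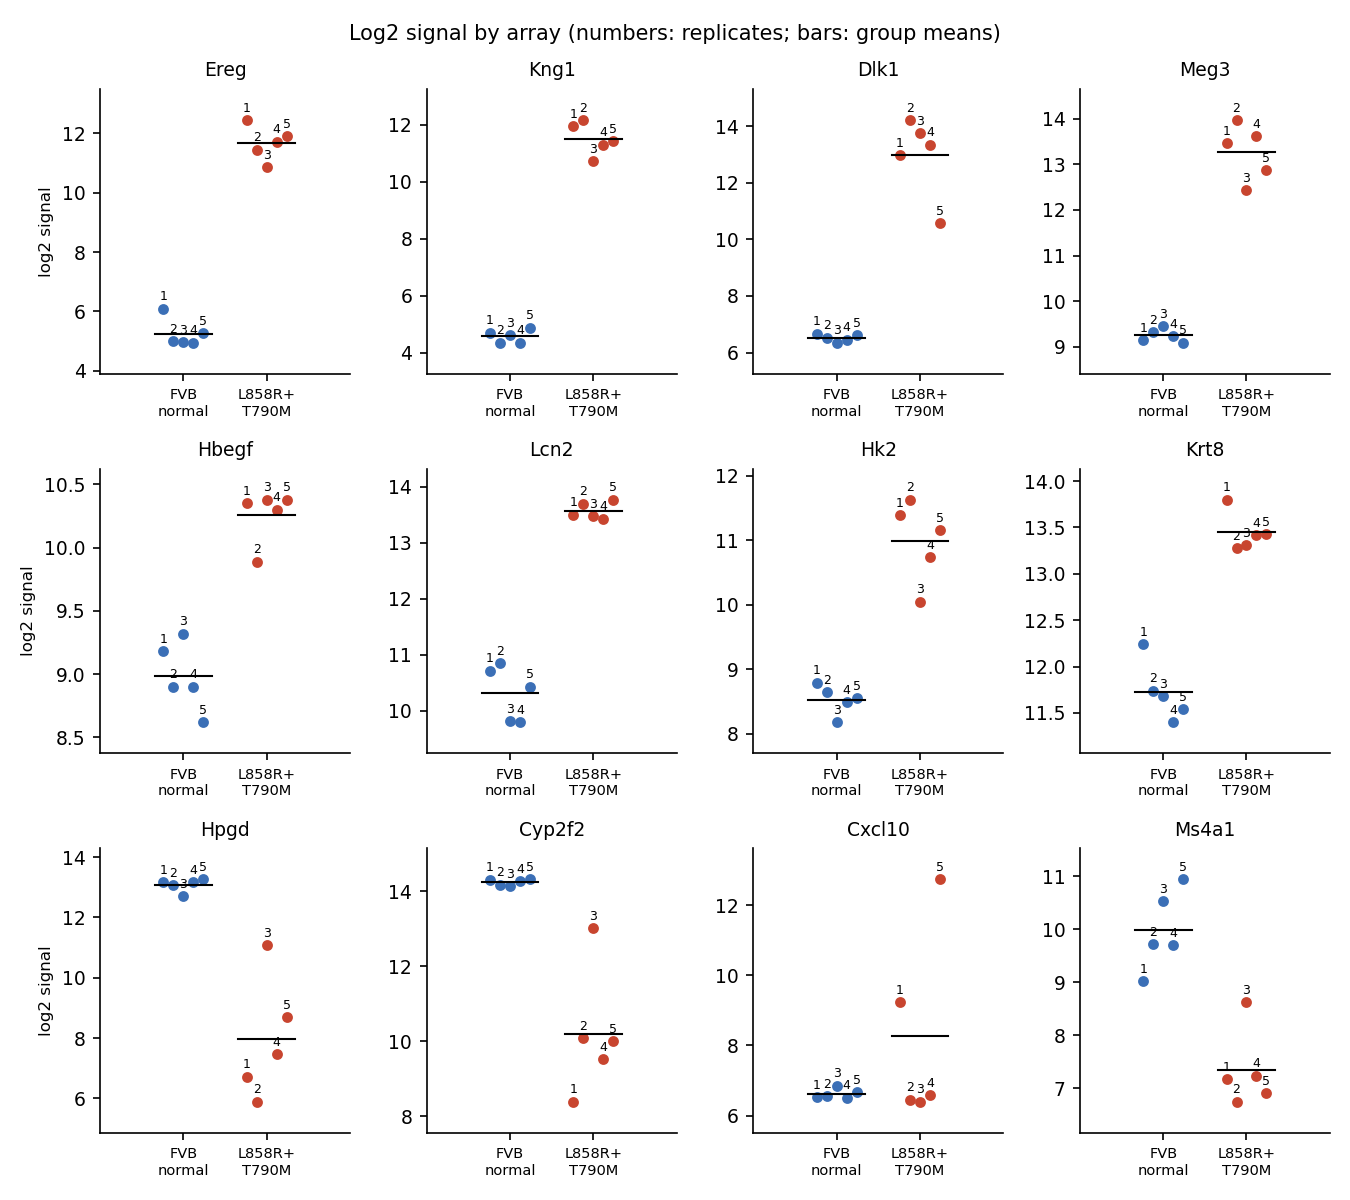
Log2 signal of 12 genes in each of the 5 FVB normals and 5 L858R+T790M tumours (points, replicates 1 to 5), with group means as bars. The group means of Ereg, Kng1, Dlk1 and Meg3 lie 4 units or more apart, Hbegf and Lcn2 show tumours that lie close together, and Hpgd and Cyp2f2 show tumours that lie far apart, with tumour 3 nearest to the normals.

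The largest rises of all genes were Kng1, Dlk1 and Ereg. Kng1, which encodes kininogen, a liver-made precursor of the kinins, read 4.70, 4.35, 4.62, 4.35 and 4.88 in normals and 11.96, 12.16, 10.71, 11.30 and 11.43 in tumours (6.93 ± 0.63, 122-fold). Its dimmer probe set rose less, by 1.17. Afp (alpha-fetoprotein, known from fetal liver) rose by 4.36 ± 0.47, and Tspan8, a tetraspanin of gut and liver tumours, by 1.30 ± 0.18. They belong to a list of 27 gut, liver and oncofetal genes of which 7 rose and 0 fell (5 to 9 rises when single arrays were left out, and 1 fall without FVB normal replicate 2 or L858R+T790M replicate 3 or 4). Alb, Ttr, Hnf4a, Cdx2 and Pdx1, which define liver or gut, did not pass the test, and their ranges overlapped with the normals. Tnfsf9, the ligand of the T cell receptor 4-1BB, read 6.96, 6.68, 6.26, 6.60 and 6.93 in normals and 11.28, 10.34, 10.69, 11.32 and 11.08 in tumours (4.26 ± 0.36). Ivl, which encodes the cornified envelope protein involucrin, rose by 3.88 ± 0.46 with tumours at 10.83, 9.77, 9.60, 10.14 and 9.77, and Sertad4 and Piwil4 rose by 3.58 ± 0.40 and 3.39 ± 0.28.

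All 4 measured genes of the imprinted Dlk1-Dio3 cluster rose. Dlk1, a membrane protein related to Notch ligands and known from fetal tissues, read 6.67, 6.52, 6.35, 6.45 and 6.62 in normals and 12.97, 14.22, 13.77, 13.35 and 10.58 in tumours (6.46 ± 0.94). The maternally expressed noncoding RNAs Meg3, Rian and Mirg rose by 4.02 ± 0.25, 3.49 ± 0.52 and 3.12 ± 0.58. Every array of Mirg was at 6.41, 6.95, 7.21, 7.35 and 7.03 in normals and at 10.21, 12.34, 8.53, 11.05 and 8.41 in tumours. All 11 Meg3 probe sets, all 4 of Rian and both of Mirg rose. For Dlk1, Rian and Mirg tumour 2 was the highest and tumour 5 the lowest, and the mean of the 4 genes was 11.86, 13.32, 11.12, 12.40 and 10.24 in tumours against 7.41 to 7.56 in normals. Elsewhere in the genome's imprinted genes 4 of 26 rose and 6 fell. Phlda2 rose by 1.44 ± 0.21, Ndn fell by 2.85 ± 0.41, and so did Mest (-1.20 ± 0.18) and the CDK inhibitor Cdkn1c (-1.17 ± 0.24), while the growth factor Igf2 differed by -0.16 ± 0.28 (adjusted p = 0.702).

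Of 19 alveolar type 2 markers 13 rose and 1 fell (median 0.58), and the list mean was 13.06 to 13.43 in tumours and 12.79 to 12.92 in normals. Among surfactant genes Sftpb rose by 0.58, Sftpd by 0.59 and Sftpa1 by 0.35, while Sftpc differed by 0.08 ± 0.03 (adjusted p = 0.0708, 0.0423 without L858R+T790M replicate 5) at signals near the top of the scale, 14.75 to 14.90 in all 10 arrays. The lipid transporter Abca3 rose by 0.76, the phospholipid enzyme Lpcat1 by 0.92 and the protease Ctsh by 1.40. Markers of type 1 cells fell in 8 of 13 and rose in 2, the water channel Aqp5 (1.03 ± 0.34) and the keratin Krt7 (0.90 ± 0.29). The type 1 list mean was 10.62 to 11.86 in tumours and 11.65 to 12.38 in normals, ranges that overlapped. The call of Aqp5 was lost without FVB normal replicate 4 (0.90, adjusted p = 0.0575), FVB normal replicate 5 (0.93, adjusted p = 0.0525) or L858R+T790M replicate 1 (0.91, adjusted p = 0.056), and that of Krt7 without FVB normal replicate 4 (0.73, adjusted p = 0.0669) or FVB normal replicate 5 (0.76, adjusted p = 0.0631). With all 10 normal lungs as the control group the call of Krt7 was lost too (0.57, adjusted p = 0.1). Falls were led by Igfbp2 (-2.32), Cav1 (-2.12), Rtkn2 (-1.83) and Spock2 (-1.78), whereas Ager differed by -0.22 ± 0.11 (adjusted p = 0.134, 0.0338 without L858R+T790M replicate 5) and Pdpn by -0.25 ± 0.36 (adjusted p = 0.639).

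Markers of the transitional, keratin 8-rich state rose in 12 of 15, with none lower (median 1.02). Krt8 read 12.24, 11.74, 11.68, 11.40 and 11.54 in normals and 13.80, 13.28, 13.31, 13.42 and 13.43 in tumours (1.73 ± 0.20), and its partner keratin Krt18 rose by 2.31 ± 0.26 with normals at 10.10 to 10.59 and tumours at 12.47 to 13.04. Clusterin (Clu), the 14-3-3 protein Sfn, Cldn4 and Krt19 rose by 1.81, 1.29, 1.21 and 1.02. Integrin beta 6 (Itgb6), which activates TGF-beta, rose by 0.94 ± 0.24. Hbegf and Cdkn1a also belong to this list and are described with the ligands and the cell cycle. Of 28 junction and keratin genes 22 rose and 3 fell. Cldn2, a claudin that forms cation pores, rose most: normals were at 6.86, 6.49, 6.61, 6.90 and 7.20 and tumours at 9.65, 12.09, 12.02, 10.87 and 8.69 (3.85 ± 0.66), so tumours 2 and 3 stood more than 3 units above tumour 5. The epithelial splicing factors Esrp1 and Esrp2 rose by 1.74 and 1.22, Epcam by 1.35 and Cdh1, E-cadherin, by 0.35. Tjp1 (-0.79), Cldn23 (-1.28) and Cldn8 (-1.09) fell.

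Of 24 lineage transcription factors of the lung 13 rose and 5 fell. Nkx2-1, the lung identity factor, read 7.50, 7.16, 7.43, 7.27 and 7.01 in normals and 8.34, 8.67, 8.30, 8.40 and 8.09 in tumours (1.09 ± 0.13), and Cebpa, a regulator of type 2 maturation, 11.47, 11.30, 11.21, 11.21 and 11.36 against 13.04, 13.37, 12.99, 13.17 and 12.51 (1.71 ± 0.13). Elf5 and Id2, known from the distal tips of the developing lung, rose by 1.56 ± 0.29 and 1.18 ± 0.24, and the epithelial factors Ehf, Grhl2, Foxp4 and Klf5 by 1.37, 1.12, 1.10 and 1.05. Sox2, the factor of the airways, fell from 9.30, 8.76, 8.57, 8.77 and 9.23 in normals to 5.54, 4.27, 6.55, 5.29 and 5.57 in tumours (-3.48 ± 0.96). The mesenchymal factors Tbx4 and Tbx5 fell by 1.61 ± 0.34 and 0.67 ± 0.11. Of the regulators of epithelial-mesenchymal transition 0 of 14 rose and 8 fell, led by Zeb1 (-2.05), Snai2 (-1.67) and Zeb2 (-1.29). The mean of these regulators was 8.42, 7.77, 8.45, 8.21 and 8.85 in tumours and 8.87 to 8.97 in normals. Endothelial and fibroblast markers fell in the same tumours, and their part in this count was not tested. Twist1 differed by 0.05 ± 0.09 (adjusted p = 0.74).

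Of 15 club cell markers 0 rose and 11 fell (median -1.88), and of 18 ciliated cell markers 0 rose and 17 fell (median -1.48). Cyp2f2, the P450 enzyme of club cells, read 14.31, 14.17, 14.13, 14.26 and 14.32 in normals and 8.39, 10.08, 13.01, 9.53 and 10 in tumours, and the secretoglobin Scgb1a1 14.77, 14.75, 14.61, 14.63 and 14.72 against 12.23, 12.25, 14.47, 12.68 and 13.82. For both, tumour 3 was the highest of the tumours and stood closest to the normals. Tppp3 of ciliated cells fell by 3.23 ± 0.49 with tumour 3 again nearest (7.52 to 10.30 in tumours, 11.74 to 12.24 in normals), and Foxj1, the factor that builds motile cilia, by 1.47 ± 0.22. Of basal and squamous markers 1 of 9 rose, Sprr1a (1.01 ± 0.35), a call lost without FVB normal replicate 2, 3, 4 or 5 or L858R+T790M replicate 1, 2 or 3 (0.88 to 0.99, adjusted p = 0.0521 to 0.0754). Of neuroendocrine markers 1 of 11 rose and 4 fell, and the rise of Chga (0.28 ± 0.09) was lost without FVB normal replicate 2 or 5 or L858R+T790M replicate 2 or 4 (0.22 to 0.25, adjusted p = 0.0517 to 0.0642). The basal markers Trp63 (-0.11 ± 0.08, adjusted p = 0.282) and Krt5 (-0.13 ± 0.10, adjusted p = 0.33) did not pass the test. Of 29 cytochrome P450 genes 12 fell and 2 rose.

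Channels and transporters of alveolar fluid changed in both directions, with 8 of 18 higher and 5 lower. Slc26a4, the anion exchanger pendrin, read 8.06, 7.65, 7.62, 7.39 and 7.44 in normals and 11.57, 10.46, 11.49, 11.89 and 10.58 in tumours (3.57 ± 0.35). The potassium channel Kcnk1 rose by 2.50 ± 0.14, the bicarbonate carrier Slc4a4 by 1.85 ± 0.26 and the sodium-potassium-chloride carrier Slc12a2 by 1.54 ± 0.10. Cftr, the chloride channel, fell from 9.23, 9.17, 9.28, 9.55 and 9.35 to 5.70, 4.77, 7.26, 5.34 and 6.63 (-3.38 ± 0.63), and the sodium channel subunits Scnn1b and Scnn1g fell by 1.36 ± 0.35 and 1.33 ± 0.35. Scnn1a differed by -0.23 ± 0.29 (adjusted p = 0.587). Lcn2, lipocalin 2, was the steadiest of the large rises, at 13.50, 13.70, 13.47, 13.43 and 13.77 in tumours against 10.72, 10.85, 9.82, 9.80 and 10.43 in normals (3.25 ± 0.22). By the ratio of the tumour SD to the difference it was among the 12 lowest of all called genes, with the phospholipase Plcd3 (9.13, 9.14, 9.08, 9.07 and 9.15 in tumours, 1.15) and Tmem51 (10.13, 10.11, 10.08, 10.07 and 10.01 in tumours, 1.06). These 12 were chosen for that ratio, so it is a description.

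Of 16 glycolysis and glucose uptake genes 11 rose and 0 fell, with a median of 1.04 beside 0.026 over all genes. Hk2, hexokinase 2, read 8.79, 8.64, 8.18, 8.49 and 8.55 in normals and 11.39, 11.63, 10.05, 10.74 and 11.16 in tumours (2.46 ± 0.25, 5.52-fold). Tpi1, Pfkl, Ldha, Pgam1 and Pgk1, enzymes along the same route, rose by 1.76, 1.75, 1.42, 1.23 and 1.18. The glucose transporter Slc2a1 rose by 1.34 ± 0.26 with uneven tumours, at 10.35, 10.29, 8.94, 9.52 and 10.49 against 8.40 to 8.69 in normals, while the transporter Slc2a3 differed by -0.34 ± 0.68 (adjusted p = 0.746) with overlapping ranges. Isoforms of 1 step did not move alike: Pfkm and Pfkp, the other phosphofructokinases, differed by -0.05 (adjusted p = 0.775) and 0.14 (adjusted p = 0.651), and hexokinase 1 (Hk1) by 0.25 (adjusted p = 0.42).

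Hypoxia response genes rose in 11 of 18 and fell in 2 (median 0.51). Hypoxia-inducible factors bind a core sequence ACGTG, and promoters of 2 of the most raised members are shown for the matches they hold. The windows run from 250 bases before to 50 after the RefSeq start (GRCm38.p6), in gene orientation, lower case, with each ACGTG on either strand in capitals. Ankrd37 lies at chr8:45999801-46000100 (minus strand, 2 matches) and Egln3 at chr12:54203825-54204124 (minus strand, 1 match).
Ankrd37: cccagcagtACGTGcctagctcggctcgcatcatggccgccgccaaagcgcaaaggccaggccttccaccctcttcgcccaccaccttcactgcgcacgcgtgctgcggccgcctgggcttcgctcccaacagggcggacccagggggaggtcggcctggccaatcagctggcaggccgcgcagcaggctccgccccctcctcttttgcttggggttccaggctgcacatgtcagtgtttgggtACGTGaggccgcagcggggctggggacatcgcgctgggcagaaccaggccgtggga
Egln3: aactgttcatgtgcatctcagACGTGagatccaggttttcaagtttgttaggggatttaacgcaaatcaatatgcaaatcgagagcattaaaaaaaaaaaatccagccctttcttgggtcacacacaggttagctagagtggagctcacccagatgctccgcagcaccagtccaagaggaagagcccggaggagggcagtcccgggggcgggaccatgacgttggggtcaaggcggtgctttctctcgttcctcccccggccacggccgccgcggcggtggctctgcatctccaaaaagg
ACGTG was found in the window of 12 of the 16 members with a RefSeq promoter (75%), against 5886 of 27025 genes (21.8%). The list was made of known hypoxia targets, and a match is neither a site nor a cause.

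Ankrd37, a short ankyrin protein, read 7.49, 7.23, 7.04, 6.92 and 7.46 in normals and 10.61, 11.10, 9.24, 9.65 and 10.98 in tumours (3.09 ± 0.38). Egln3, the prolyl hydroxylase that marks hypoxia-inducible factors for decay, read 7.86, 6.63, 6.66, 6.69 and 6.69 against 10.01, 11.19, 9.50, 9.23 and 9.66 (3.01 ± 0.67). Tumours 1, 2 and 5 were higher than tumours 3 and 4 for Ankrd37, for Slc2a1 and for Bnip3 (12.56, 12.99, 11.86, 12.09 and 12.76 in tumours, 1.57 ± 0.29). The factors themselves went opposite ways: Hif1a rose by 0.94 ± 0.10 and Epas1, the form of endothelium and type 2 cells, fell by 1.16 ± 0.19. Vegfa, the vessel growth factor, fell by 0.70 ± 0.13 with tumours at 10.68 to 11.45 and normals at 11.64 to 11.97. Leaving out single arrays gave 8 to 12 rises.

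**Figure D3:**
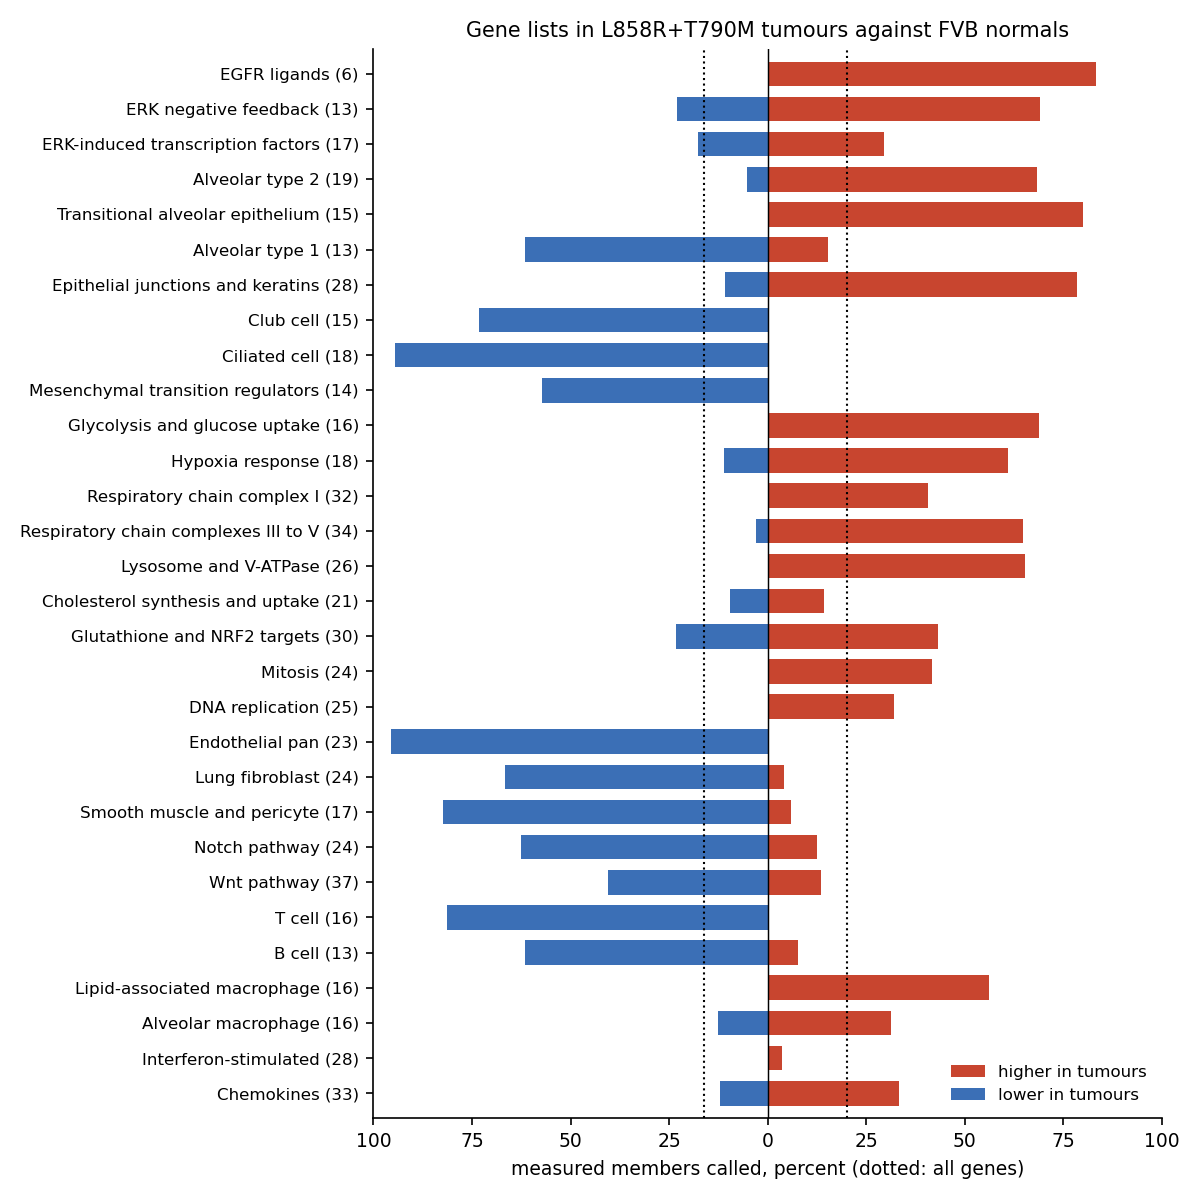
For 30 gene lists, the share of measured members that rose (right) and fell (left) in L858R+T790M tumours against FVB normals, with the number measured beside each name. The dotted lines mark the shares over all 18193 genes, 20.2% higher and 16.1% lower. Glycolysis, EGFR ligands and the transitional state lie to the right with no falls, and endothelial, ciliated, club and T cell lists lie to the left with no rises.

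Of complex I subunits 13 of 32 rose and 0 fell (median 0.23), and of subunits of complexes III to V 22 of 34 rose and 1 fell (median 0.33). Citrate cycle genes rose in 11 of 24 with none lower. The cytosolic malic enzyme Me1, which makes NADPH, rose most among them, at 11.57, 12.02, 12.17, 12.23 and 10.92 in tumours and 10.27, 9.60, 9.80, 9.54 and 9.58 in normals (2.02 ± 0.22), while citrate synthase (Cs) rose by 0.35 ± 0.07. Pentose phosphate and nucleotide synthesis genes rose in 9 of 14, with Pgd (1.36 ± 0.11), the second enzyme of NADPH production in that pathway, and Ctps (1.17 ± 0.15), which makes CTP, in front. Impdh1 fell by 1.09 ± 0.12. Fatty acid genes rose in 9 of 25 and fell in 2, including Fasn (0.82 ± 0.16), Acaca (0.80 ± 0.11) and Agpat2 (1.09 ± 0.12), whereas cholesterol synthesis and uptake genes rose in 3 of 21 and fell in 2, no more than the shares over all genes. Pmvk rose there by 1.63 ± 0.33, and Sqle differed by -0.51 ± 0.21 (adjusted p = 0.063, 0.028 without L858R+T790M replicate 5).

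Of 23 amino acid synthesis genes and targets of the stress factor ATF4, 11 rose and 3 fell. Psat1, of serine synthesis, read 7.79, 7.24, 7.65, 7.33 and 7.61 in normals and 9.97, 9.87, 9.86, 10.23 and 9.13 in tumours (2.29 ± 0.19), but its neighbours in the pathway, Phgdh (0.28 ± 0.16, adjusted p = 0.17, and 0.84 with the median over its probe sets) and Psph (-0.13 ± 0.12, adjusted p = 0.44), did not pass the test. Trib3 rose by 1.24 ± 0.23 and Aldh18a1, of proline synthesis, by 1.08 ± 0.19, while the ATF4 target Ddit3 (CHOP) fell by 0.86 ± 0.15. Both arginases rose: Arg2, the mitochondrial form, from 7.59, 8.44, 6.83, 7.07 and 8.0 to 11.52, 11.99, 11.37, 11.96 and 10.56 (3.89 ± 0.32), and Arg1 by 3.08 ± 0.73. Smox, spermine oxidase, was nearly constant in normals (9.03, 9.02, 8.92, 9.04 and 9.02) and higher in tumours (10.99, 11.08, 10.25, 10.30 and 10.58; 1.63 ± 0.21). Odc1, which opens polyamine synthesis, differed by -0.07 ± 0.12 (adjusted p = 0.73), and Ddah1, which clears methylated arginine, fell by 1.77 ± 0.24. Of 20 amino acid transporters 5 rose and 3 fell (3 rises without FVB normal replicate 2, 4 or 5), with the subunits of 1 transporter apart: Slc7a5 rose by 1.15 ± 0.13 and its partner Slc3a2 fell by 0.81 ± 0.16.

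Antioxidant genes were mixed, with 13 of 30 glutathione and NRF2 target genes higher and 7 lower. Hmox1 rose by 1.42 ± 0.21, Mgst2 by 1.65 ± 0.28 and Txnrd1 by 0.97 ± 0.17. Nqo1, another NRF2 target, differed by -0.64 ± 0.28 (adjusted p = 0.0794, 0.0397 without L858R+T790M replicate 1), and the glutathione transferases Gsta2, Gsta3, Gstm1 and Gstm2, all abundant in airway cells, fell by 2.06 ± 0.35, 2.07 ± 0.25, 1.29 ± 0.28 and 1.42 ± 0.33. The count of falls was 4 without FVB normal replicate 2. Lysosomal genes rose in 17 of 26 with none lower (median 0.53). They included the proton pump subunits Atp6v0a1 (1.09 ± 0.11) and Atp6v1a (0.68 ± 0.10), cathepsin Z (Ctsz, 0.89 ± 0.13) and the lipase Lipa (0.73 ± 0.14), while Lamp1 differed by 0.05 ± 0.07 (adjusted p = 0.655). Macrophages express many of these genes too, and the list mean was 11.44, 11.09, 11.33, 11.54 and 11.60 in tumours, against a lipid-associated macrophage mean of 11.59, 10.94, 11.50, 11.81 and 12.06 in the same tumours. Both means were lowest in tumour 2. The part of macrophages in the lysosomal rise was not tested.

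Endothelial genes fell in 22 of 23 with none higher (median -2.05), and capillary markers in 14 of 16. In bulk tissue, fewer cells of a type and less RNA per cell cannot be told apart. Tek, the receptor TIE2, read 12.29, 12.45, 12.44, 12.74 and 12.48 in normals and 8.79, 8.01, 10.62, 8.47 and 9.97 in tumours, and the junction protein Cldn5 12.92, 13.15, 13.25, 13.36 and 13.17 against 9.61, 8.48, 11.42, 9.66 and 11 (-3.14 ± 0.51). The list mean was 11.01, 11.27, 11.32, 11.52 and 11.34 in normals and 8.99, 8.33, 10.14, 8.87 and 10.21 in tumours, so tumours 3 and 5 stood nearest to the normals, tumour 2 furthest, and none overlapped. Tumours 3 and 5 were also the nearest on the first principal component, at 22.5 and 23.9, where the other tumours were at up to 63.9 and the normals at -43.9 to -40.0. It carried 67.0% of the variance of the 10 arrays. The deepest falls of capillary genes were Hpgd, which degrades prostaglandins, from 13.18, 13.08, 12.70, 13.16 and 13.27 to 6.72, 5.89, 11.08, 7.46 and 8.70, and Tmem100 (-4.54 ± 0.78) and Npr3 (-4.33 ± 0.44). Apln, made by capillary tip cells, differed by -0.18 ± 0.34 (adjusted p = 0.735). Lymphatic markers fell in 5 of 7, with Lyve1 (-3.31) in front and Prox1 at -0.06 ± 0.06 (adjusted p = 0.429).

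Lung fibroblast genes fell in 16 of 24 and rose in 1, and the list mean was 8.61, 8.28, 9.57, 8.84 and 9.39 in tumours and 10.65, 10.57, 10.65, 10.42 and 10.10 in normals. The matrix proteins Ogn (-4.78 ± 0.88) and Dpt (-3.98 ± 0.69) fell, as did Tcf21 (-3.14 ± 0.59), a factor of alveolar fibroblasts. Eln, elastin, was the exception: it rose by 1.12 ± 0.33, from 10.09, 10.37, 9.93, 9.86 and 9.43 to 10.42, 10.47, 11.01, 11.12 and 12.25, with tumour 5 above the rest. Col1a1 (0.75 ± 0.38, adjusted p = 0.128, 0.0366 without L858R+T790M replicate 2) and Col3a1 (-0.45 ± 0.46, adjusted p = 0.494) did not pass the test. Smooth muscle and pericyte genes fell in 14 of 17, and Rgs5, a pericyte gene, rose by 2.60 ± 0.37, from 8.64, 8.44, 8.02, 8.28 and 8.45 to 11.09, 11.01, 10.41, 10.56 and 11.76. Of 30 collagen and crosslinking genes 3 rose and 4 fell, and Col18a1 and Col15a1, the basement membrane collagens that yield endostatins, rose by 2.03 ± 0.46 and 1.67 ± 0.37. The rises numbered 6 without L858R+T790M replicate 2 or 4 and 5 without replicate 3, and the falls numbered 7 without replicate 5.

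Cell adhesion to the basement membrane changed in both directions, with 8 of 29 integrin and laminin genes higher and 8 lower. Lamb3, a chain of an epithelial laminin, read 9.36, 9.18, 9.55, 8.84 and 8.98 in normals and 12.30, 12.62, 12.01, 12.26 and 11.72 in tumours (3.0 ± 0.25), an 8-fold rise, while its partner chain Lama3 differed by -0.49 ± 0.25 (adjusted p = 0.136, 0.0347 without L858R+T790M replicate 3). Itga9 and Itga7 rose by 2.01 ± 0.38 and 1.75 ± 0.28, Itgav by 0.86 ± 0.11, and Itga8 and Itga1, of mesenchymal cells, fell by 2.36 ± 0.47 and 1.70 ± 0.27. Of 29 matrix proteases and inhibitors 7 rose and 4 fell. Mmp12, the macrophage elastase, read 6.91, 7.15, 6.61, 6.38 and 7.64 against 9.72, 8.60, 10.54, 11.33 and 9.91 (3.08 ± 0.47), and Timp1, a protease inhibitor, rose by 1.43 ± 0.39, whereas the plasminogen activator Plat fell by 1.84 ± 0.31. The count of falls was 2 without L858R+T790M replicate 2.

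Among signalling genes of vessel and stroma, the BMP, Notch and Wnt lists held more falls than rises. Of 27 BMP and TGF-beta genes 8 rose and 12 fell. The falls were led by Bmp6 (10.92, 11.30, 11.41, 11.63 and 11.86 in normals, 7.22, 6.76, 9.45, 6.61 and 8.56 in tumours), the inhibitory Smad6 (-2.94 ± 0.38) and the endothelial receptor Acvrl1 (-2.76 ± 0.45), and Bmpr2, a main BMP receptor, fell by 1.32 ± 0.17. Bmp2, Bmp4 and the BMP antagonist Grem1 rose by 1.20 ± 0.32, 1.03 ± 0.21 and 1.24 ± 0.26. Notch pathway genes rose in 3 of 24 and fell in 15 (median -0.49). The falls included the endothelial receptor Notch4 (-2.08 ± 0.33), the target genes Nrarp (-1.72 ± 0.24) and Hey1 (-1.72 ± 0.28) and the ligand Dll4 (-1.15 ± 0.15). Hes1, a target in epithelium too, differed by -0.03 ± 0.13 (adjusted p = 0.876).

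Wnt pathway genes rose in 5 of 37 and fell in 15. Rspo1, which amplifies Wnt signals and is made by mesothelium, fell from 9.29, 9.05, 9.01, 8.14 and 8.94 to 6.02, 5.96, 7.52, 6.02 and 7.33, the stromal ligand Wnt2 by 1.71 ± 0.25, and the targets Axin2 and Lef1 by 0.75 ± 0.15 and 0.70 ± 0.10, while the inhibitor Dkk2 rose by 1.57 ± 0.37 and the receptor-removing ligase Rnf43 by 0.77 ± 0.15. Hippo-YAP target and partner genes fell in 8 of 15, led by Crim1 (-2.38) and Ankrd1 (-1.91), and the targets Ccn1 (0.04 ± 0.30, adjusted p = 0.933) and Ccn2 (-0.34 ± 0.28, adjusted p = 0.381, 0.0233 without L858R+T790M replicate 5) did not pass the test. Endothelial, fibroblast and mesothelial markers fell in the same tumours, and their part in these pathway counts was not tested. Mesothelium markers fell in 6 of 9, led by Gpm6a (-3.33) and Upk3b (-2.49), with list means of 8.36 to 9.45 in normals and 7.06 to 8.46 in tumours.

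The cardiac muscle and adipose lists had lower means in tumours, and the source of their signal in the normal lungs was not tested. Cardiac muscle genes fell in 9 of 13 (Myl7 from 11.22, 10.30, 10.64, 10.91 and 11.33 to 6.72, 6.79, 5.70, 6.03 and 7.53), and the adipose genes Car3 (-5.78 ± 0.76) and Adipoq (-4.11 ± 0.50) fell. The cardiac list mean was 9.19 to 9.99 in normals and 6.85 to 7.44 in tumours, and the adipose mean 7.39 to 7.82 and 6.06 to 6.27. Myh7, a slow myosin of heart, went against its list and rose by 1.65 ± 0.41, with normals at 9.54 to 9.77 and tumours at 10.67 to 11.95. Nodules were cut from lungs and normals were pieces of lung, so tissue type and dissection cannot be told apart here.

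T cell genes fell in 13 of 16, NK and cytotoxic genes in 8 of 14 and B cell genes in 8 of 13, with only Ly6d of these lists higher (1.67 ± 0.61), a call lost without FVB normal replicate 2, 3 or 4 or L858R+T790M replicate 1, 3 or 4 (1.26 to 1.68, adjusted p = 0.0557 to 0.113). Ms4a1, the B cell antigen CD20, read 9.03, 9.72, 10.54, 9.70 and 10.95 in normals and 7.17, 6.75, 8.63, 7.24 and 6.91 in tumours (-2.65 ± 0.46), and Cd3g of the T cell receptor 8.30, 8.63, 9.28, 8.82 and 8.94 against 7.19, 6.35, 7.77, 7.65 and 7.76 (-1.45 ± 0.40). Tumour 3 kept the most Ms4a1. Gzma (-2.26 ± 0.49) and Klrd1 (-2.44 ± 0.39) of NK cells fell, and so did Cd4 (-0.31 ± 0.08). Dendritic cell genes fell in 7 of 13, led by Cd209a (-2.07) and the migration receptor Ccr7 (-1.79), and Batf3 rose by 0.93 ± 0.19.

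Macrophage lists differed in their counts, but they share members with lists of other cells, as Lyve1 with the lymphatic and Lgals3 with the transitional list. The part of other cell types in these counts was not tested. Of 16 lipid-associated macrophage genes 9 rose and 0 fell: Mmp12, Arg1, Gpnmb (8.94, 8.84, 9.15, 9.24 and 8.88 in normals, 10.83, 9.86, 11.09, 11.88 and 12.60 in tumours, 2.24 ± 0.43) and Trem2 (0.83 ± 0.17) were among them, while Apoe differed by 0.33 ± 0.20 (adjusted p = 0.208). Of 16 alveolar macrophage markers 5 rose and 2 fell, and 9 rose without L858R+T790M replicate 2, the tumour with the lowest list mean (10.51, 9.42, 10.19, 10.66 and 10.60 in tumours 1 to 5). Marco, a scavenger receptor, read 6.98, 6.52, 6.99, 7.14 and 7.0 against 12.11, 9.50, 9.31, 9.97 and 11.97, so tumours 1 and 5 stood 2 units above the other 3. Pparg, the factor of alveolar macrophages, rose by 1.28 ± 0.19. Of 19 markers of monocytes and interstitial macrophages 4 rose, 6 fell and 9 did not pass the test. The falls were Lyve1 (-3.31), Adgre4 (-2.10), Ace (-1.88), Cd163 (-1.61), Ccr2 (-1.01) and Folr2 (-0.70). The rises were Cd14, the co-receptor for endotoxin (1.57 ± 0.23), the antibody receptors Fcgr1 (1.18 ± 0.44) and Fcgr4 (1.18 ± 0.42), and the complement gene C1qa (0.72 ± 0.28). The call of Fcgr1 was lost without FVB normal replicate 1, 2, 3 or 4 or L858R+T790M replicate 1 or 5 (0.64 to 1.20, adjusted p = 0.0575 to 0.116), that of Fcgr4 without FVB normal replicate 1, 3 or 4 or L858R+T790M replicate 1, 4 or 5 (0.76 to 1.18, adjusted p = 0.0533 to 0.112) and that of C1qa without FVB normal replicate 1, 2, 3 or 4 or L858R+T790M replicate 1 or 5 (0.42 to 0.76, adjusted p = 0.0567 to 0.158). The count of rises was 1 without FVB normal replicate 1, 3 or 4 or L858R+T790M replicate 1 or 5, and 2 without FVB normal replicate 2. Neutrophil genes rose in 1 of 14, Lcn2, and fell in 1. Among the others, S100a8 (-1.11 ± 0.94, adjusted p = 0.396) and S100a9 (-1.59 ± 1.03, adjusted p = 0.247) did not pass the test.

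Cytokine and TNF family genes changed in both directions. Of 34 cytokines and receptors 10 rose and 5 fell. Lif read 6.96, 7.08, 6.96, 6.91 and 7.02 in normals and 8.96, 8.18, 8.03, 8.56 and 8.33 in tumours (1.43 ± 0.14), and Csf2 (GM-CSF) 7.82, 7.45, 7.28, 7.88 and 7.44 against 9.02, 8.93, 8.26, 8.88 and 8.49 (1.14 ± 0.16). The shared GM-CSF receptor chain Csf2rb rose by 1.22 ± 0.19 and Il34, a ligand of the CSF1 receptor, by 0.76 ± 0.14. Receptors of the IL-6 family fell, Il6st by 1.39 ± 0.29 and Il6ra by 1.15 ± 0.19, and Il6 itself differed by 1.44 ± 0.62 (adjusted p = 0.0749, 0.0405 without FVB normal replicate 5, 0.0148 without L858R+T790M replicate 2 and 0.0345 without L858R+T790M replicate 3). Of 22 TNF superfamily genes 8 rose and 6 fell: besides Tnfsf9 its receptor Tnfrsf9 rose by 1.12 ± 0.23, the TWEAK receptor Tnfrsf12a by 1.95 ± 0.24 (11.56 to 12.33 in tumours, 9.64 to 10.39 in normals) and Tnfrsf21 by 1.27 ± 0.22, while Tnfsf10, which encodes TRAIL (-2.18 ± 0.44), and Tnfrsf19 (-2.58 ± 0.38) fell. Cd276 (B7-H3), a checkpoint ligand, rose by 1.68 ± 0.15.

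Of 22 prostaglandin and leukotriene genes 4 rose and 5 fell. Ptges, the inducible PGE2 synthase, read 8.72, 8.48, 8.69, 8.64 and 8.49 in normals and 10.70, 10.17, 10, 10.27 and 10.62 in tumours (1.75 ± 0.34), Ptges2 rose by 0.64 ± 0.07 and the phospholipase Pla2g1b by 1.42 ± 0.27. The PGE2-degrading Hpgd fell, as did the prostacyclin synthase Ptgis (-1.70). Ptgs2, cyclooxygenase 2, differed by -1.15 ± 0.47 (adjusted p = 0.0581, 0.0429 without L858R+T790M replicate 1 and 0.0333 without L858R+T790M replicate 5). Hpgd is also on the capillary list, whose mean was 11.60 to 11.97 in normals and 8.35 to 10.54 in tumours.

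Tumours differed among themselves more than normals did. The median SD over genes was 0.158 among tumours and 0.099 among normals, 14251 genes (78.3%) had the larger SD among tumours, and 343 genes had a tumour SD of at least 1 against 79 for normals. A second principal component, with 13.7% of the variance, ran from tumour 2 (-33.9) to tumours 1 (18.7) and 5 (46.8). The 12 genes of largest tumour SD held the sex-linked Xist, Eif2s3y and Kdm5d, which varied about as widely among normals, and the interferon-induced or inflammatory genes Cxcl9, Cxcl10, Cxcl11, Gbp8, Acod1, Saa3, Slfn4 and Clec4e. Cxcl10, a chemokine for T cells, read 9.23, 6.46, 6.40, 6.58 and 12.74 in tumours and 6.52, 6.56, 6.85, 6.51 and 6.67 in normals, and the difference did not pass the test (1.66 ± 0.76, adjusted p = 0.0939, 0.0377 without L858R+T790M replicate 2, 0.0338 without L858R+T790M replicate 3 and 0.044 without L858R+T790M replicate 4). Saa3, an acute phase protein, read 14.05, 9.78, 8.63, 10.52 and 13.95 in tumours and 9.32, 9.18, 7.66, 7.92 and 8.87 in normals (2.80 ± 0.80, adjusted p = 0.00877). Tumours 1 and 5 were high for both and tumours 2 and 3 lay within or near the normals.

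Of 28 interferon-stimulated genes 1 rose and 0 fell (median 0.26), and that 1 was Cxcl11 (1.89 ± 0.65), whose call was lost without FVB normal replicate 2 (1.85, adjusted p = 0.0516) or L858R+T790M replicate 1 (1.57, adjusted p = 0.0831). The call of Cxcl11 was also lost when limma was fitted to the L858R+T790M and FVB normal arrays only (adjusted p = 0.137). The count of rises was 7 without L858R+T790M replicate 2, 5 without replicate 3 and 3 without replicate 4, and without replicate 5 it was 1 rise and 1 fall with a median of -0.22. The list mean was 9.57, 7.64, 8.12, 8.34 and 11.21 in tumours and 8.46, 8.49, 8.76, 8.45 and 8.63 in normals, so the 5 tumours lay on both sides of the normals. Promoters of 3 members whose tumours spread widely are shown for a core of the interferon-stimulated response element, searched as GAAANNGAA on both strands, with matches in capitals (windows as above). Cxcl10 lies at chr5:92348840-92349139 (minus strand, 1 match), Ifit1 at chr19:34640639-34640938 (plus strand, 3 matches, of which 2 overlap) and Rsad2 at chr12:26456403-26456702 (minus strand, 1 match).
Cxcl10: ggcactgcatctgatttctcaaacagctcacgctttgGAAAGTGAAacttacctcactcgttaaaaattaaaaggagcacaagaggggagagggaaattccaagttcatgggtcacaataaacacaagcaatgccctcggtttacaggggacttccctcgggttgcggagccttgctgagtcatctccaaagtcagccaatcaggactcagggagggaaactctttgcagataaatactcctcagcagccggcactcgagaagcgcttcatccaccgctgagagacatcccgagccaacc
Ifit1: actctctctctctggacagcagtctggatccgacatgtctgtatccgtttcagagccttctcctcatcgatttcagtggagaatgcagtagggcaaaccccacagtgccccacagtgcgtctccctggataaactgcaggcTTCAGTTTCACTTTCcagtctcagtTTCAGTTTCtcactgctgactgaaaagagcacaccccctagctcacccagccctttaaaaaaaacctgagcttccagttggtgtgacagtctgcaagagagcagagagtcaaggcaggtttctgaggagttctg
Rsad2: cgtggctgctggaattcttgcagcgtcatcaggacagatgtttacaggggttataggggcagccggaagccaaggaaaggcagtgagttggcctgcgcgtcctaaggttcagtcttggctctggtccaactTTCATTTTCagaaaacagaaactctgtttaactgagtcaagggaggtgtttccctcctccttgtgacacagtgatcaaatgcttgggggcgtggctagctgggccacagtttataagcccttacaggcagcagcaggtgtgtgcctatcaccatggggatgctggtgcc
GAAANNGAA was found for 13 of the 21 members with a RefSeq promoter (61.9%), against 2638 of 27025 genes (9.76%). The list was made of genes known to respond to interferon, and a match is a description of the letters only.

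Ifit1, an RNA-binding antiviral protein, read 9.34, 8.98, 9.20, 8.88 and 8.84 in normals and 9.84, 7.01, 8.17, 8.85 and 12.37 in tumours, so tumour 2 was nearly 2 units below the lowest normal and tumour 5 3 units above the highest. Rsad2 (viperin) read 8.77, 8.47, 8.81, 8.84 and 8.30 against 9.55, 7.99, 8.23, 8.13 and 12.31, and the GTPase Gbp2 10.79, 10.72, 11.35, 10.54 and 11.10 against 12.13, 8.30, 9.48, 9.94 and 13.45. For both, tumours 2, 3 and 4 lay below every normal and tumours 1 and 5 above. The mean of 11 MHC class I presentation genes was also lowest in tumour 2 and highest in tumour 5, at 11.42, 10.29, 10.82, 10.75 and 12.11 in tumours against 10.81 to 11.34 in normals, with tumour 3 inside the range of the normals. Of the 11 genes 0 passed the test, and 2 fell without L858R+T790M replicate 5. Chemokines rose in 11 of 33 and fell in 4. Cxcl3 (10.13, 6.04, 7.20, 8.28 and 7.39 in tumours, 3.55 to 4.29 in normals), Cxcl2 (10.26, 6.94, 6.25, 6.91 and 10.78, 5.69 to 6.07), both neutrophil chemokines, and the monocyte chemokine Ccl12 (8.70, 6.92, 6.57, 7.24 and 10.76, 5.79 to 6.53) were above the normals in every tumour, by 3.98 ± 0.55, 2.40 ± 0.61 and 2.01 ± 0.52. Tumour 1 was highest for Cxcl3 and tumour 5 for the others, and 7 chemokines rose without L858R+T790M replicate 1.

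**Figure D4:**
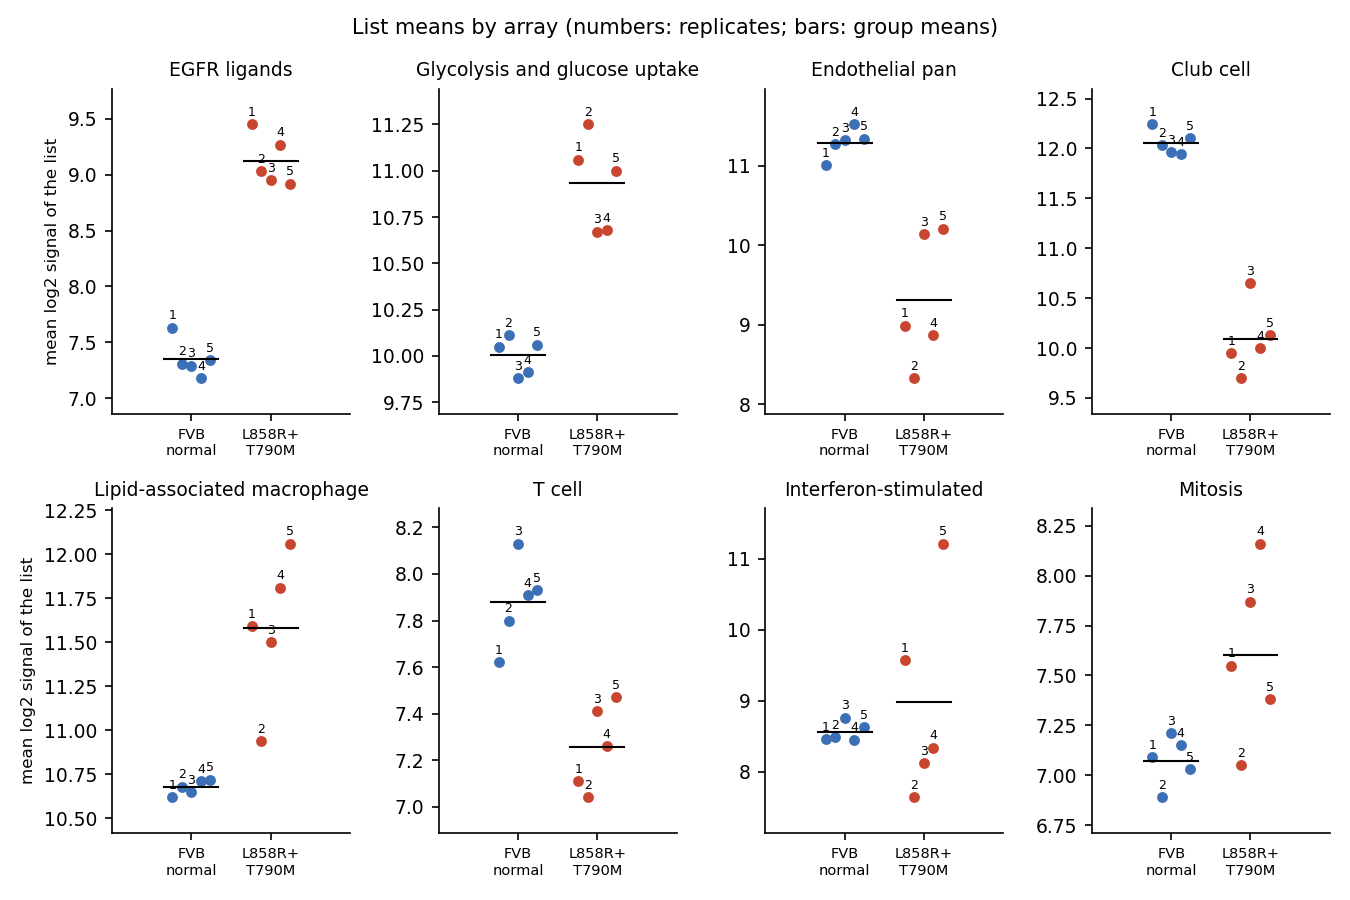
Mean log2 signal of 8 gene lists in each FVB normal and each L858R+T790M tumour (replicates 1 to 5). Tumours lie apart from normals for EGFR ligands, glycolysis and endothelial genes, with endothelial means of tumours 3 and 5 nearest to the normals, while interferon-stimulated genes spread from 7.64 in tumour 2 to 11.21 in tumour 5 around normals at 8.45 to 8.76.

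Proliferation genes rose less evenly. Mitosis genes rose in 10 of 24 with none lower, and 4 to 12 rose when single arrays were left out (4 with normal 2, tumour 3 or tumour 4 left out, 5 with normal 5, 6 with normal 4, and 12 with tumour 2). DNA replication genes rose in 8 of 25, and the number was 4 with normal 1, normal 2, tumour 3 or tumour 4 left out and 12 with tumour 2 left out. The mitosis mean was 7.55, 7.05, 7.87, 8.16 and 7.38 in tumours and 7.09, 6.89, 7.21, 7.15 and 7.03 in normals, so tumours 3 and 4 were the highest and tumour 2 lay within the normals. Rfc3 and Rfc4, clamp loader subunits, rose by 0.70 ± 0.19 and 0.66 ± 0.20, and Pcna differed by -0.20 ± 0.15 (adjusted p = 0.321).

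Of 24 CDK inhibitor and p53 target genes 9 rose and 7 fell. Cdkn1a (p21) read 11.08, 10.98, 10.41, 10.95 and 10.81 in normals and 12.02, 11.60, 11.96, 11.99 and 12.11 in tumours (1.09 ± 0.16), Cdkn2b (p15) rose by 0.82 ± 0.16 and Cdkn2a by 0.60 ± 0.14, from 5.31, 5.33, 5.26, 5.40 and 5.32 to 5.98, 6.29, 5.75, 5.95 and 5.66. Zmat3, a p53 target, rose by 1.21 ± 0.15 and Mdm2 by 0.29 ± 0.08, but the p53 targets Pmaip1 (NOXA) and Sesn1 fell by 1.56 ± 0.40 and 0.90 ± 0.15, and Bbc3 (PUMA) differed by 0.09 ± 0.10 (adjusted p = 0.505). Among apoptosis regulators the protective Bcl2l1 rose by 0.87 ± 0.10, the EGFR-regulated killer Bcl2l11 (BIM) differed by -0.04 ± 0.11 (adjusted p = 0.843), Bmf rose by 0.98 ± 0.17 and Bcl2 fell by 0.63 ± 0.10.

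Genes of the insulin-like growth factor (IGF) axis rose in 4 of 17 and fell in 6. Igf1 rose from 8.49, 8.96, 8.72, 8.42 and 7.83 to 9.98, 9.33, 10.18, 10.96 and 10.60 (1.73 ± 0.51) and Igfbp6 fell from 11.84, 12.05, 12.22, 11.54 and 11.33 to 7.72, 7.41, 9.88, 7.73 and 8.62 (-3.52 ± 0.54). Igfbp5 and Igfbp4 fell by 1.97 ± 0.28 and 1.26 ± 0.20. Heat shock genes fell in 8 of 19 and rose in 3, and here it was the normals that were uneven. Hspa1a (HSP70) read 12.31, 8.30, 11.19, 12.33 and 9.44 in normals and 7.67, 6.42, 6.98, 6.17 and 8.42 in tumours (-3.58 ± 0.82), and Hspa1b 13.13, 10.87, 12.57, 13.28 and 11.05 against 9.74, 8.43, 9.23, 9.07 and 10.09 (-2.87 ± 0.64), with normals 1, 3 and 4 higher than normals 2 and 5 for both. Of 18 clock genes 2 rose and 3 fell. Bhlhe40 and Nfil3 rose by 1.70 ± 0.21 and 1.25 ± 0.36, and Arntl (0.03 ± 0.34, adjusted p = 0.962) and Per2 (-0.11 ± 0.30, adjusted p = 0.816) did not pass the test.

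Symbol families were counted beside the shares over all genes, 20.2% higher and 16.1% lower. They share members with the lists above, such as pendrin and Klf5. Of 43 ribosomal protein genes of Rpl and Rps symbols 18 rose and 1 fell (median 0.18), and Rpl14 rose by 0.57 ± 0.16. Of 347 solute carriers 89 rose and 49 fell, with Slc35f1 (2.25 ± 0.48) after pendrin at the top and the noradrenaline transporter Slc6a2 (-3.34 ± 0.45) lowest. Klf factors fell in 10 of 16 (median -0.53), among them Klf2 (-2.49 ± 0.36), a factor induced by blood flow, and Klf5 was 1 of 2 that rose. Hox genes fell in 10 of 36, led by Hoxb5 (-2.58 ± 0.25) and Hoxa5 (-1.02 ± 0.13), and Fox genes fell in 12 of 38, led by Foxf1 (-3.10 ± 0.46), a factor of lung endothelium and mesenchyme. Adgr and Gpr receptors fell in 23 of 83 and rose in 9, with Adgre5 (-2.93 ± 0.41) and Adgrg1 (1.38 ± 0.13) at the ends, and S100a14 rose by 3.24 ± 0.53.

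Tumours of the T790M genotype share strain, diet and dissection with the L858R+T790M tumours, and 289 of 18193 genes (1.59%) differed between them, 139 higher (0.764%) and 150 lower (0.824%) in L858R+T790M. Ereg was 11.68 ± 0.58 in L858R+T790M and 8.55 ± 1.73 in T790M tumours (SD, n = 5 each), a difference of 3.13 ± 0.52 (adjusted p = 0.0055), and ranges were 10.87 to 12.45 and 5.74 to 10.19. Of the other ligands Hbegf (1.08 ± 0.19) and Epgn (0.95 ± 0.14) were also higher in L858R+T790M, so 3 of 6 ligands differed. The scavenger receptor Marco (2.85 ± 0.52), Ivl (2.50 ± 0.46), pendrin (Slc26a4, 2.34 ± 0.35) and the glypican Gpc6 (1.59 ± 0.18) were also higher in L858R+T790M. So were the TWEAK receptor Tnfrsf12a (1.30 ± 0.24), Cdkn2b (1.15 ± 0.16) and Lif (0.88 ± 0.14). Gsta3 was 9.11 ± 0.52 against 10.46 ± 0.30 (-1.34 ± 0.25), and the secretory cell factor Bhlha15 (-1.52 ± 0.24), the secretory protein Elapor1 (-1.62 ± 0.30) and the asparagine synthetase Asns (-0.88 ± 0.16) were lower. Of 25 DNA replication genes 6 were lower in L858R+T790M than in T790M tumours and 0 higher (median -0.61, beside 0.014 over all genes). Of 24 mitosis genes 0 passed the test (median -0.68). These list counts were not repeated with single arrays left out.

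Of the 8 highest and 8 lowest differences, those named here are the ones whose call held when any single array was left out, as 58 of the 289 did, and the other genes named here are list members that met the same condition. The number of calls was 62 without L858R+T790M replicate 1, 151 without replicate 5, 439 without replicate 2, 168 without T790M replicate 4 and 485 without T790M replicate 2. When the fit used only the 10 arrays of these groups, 0 genes passed limma's adjusted threshold, the calls above included, and 1857 had an unadjusted p under 0.05. In the fit reported above, the spread is estimated over all 24 arrays, normals included.

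**Figure D5:**
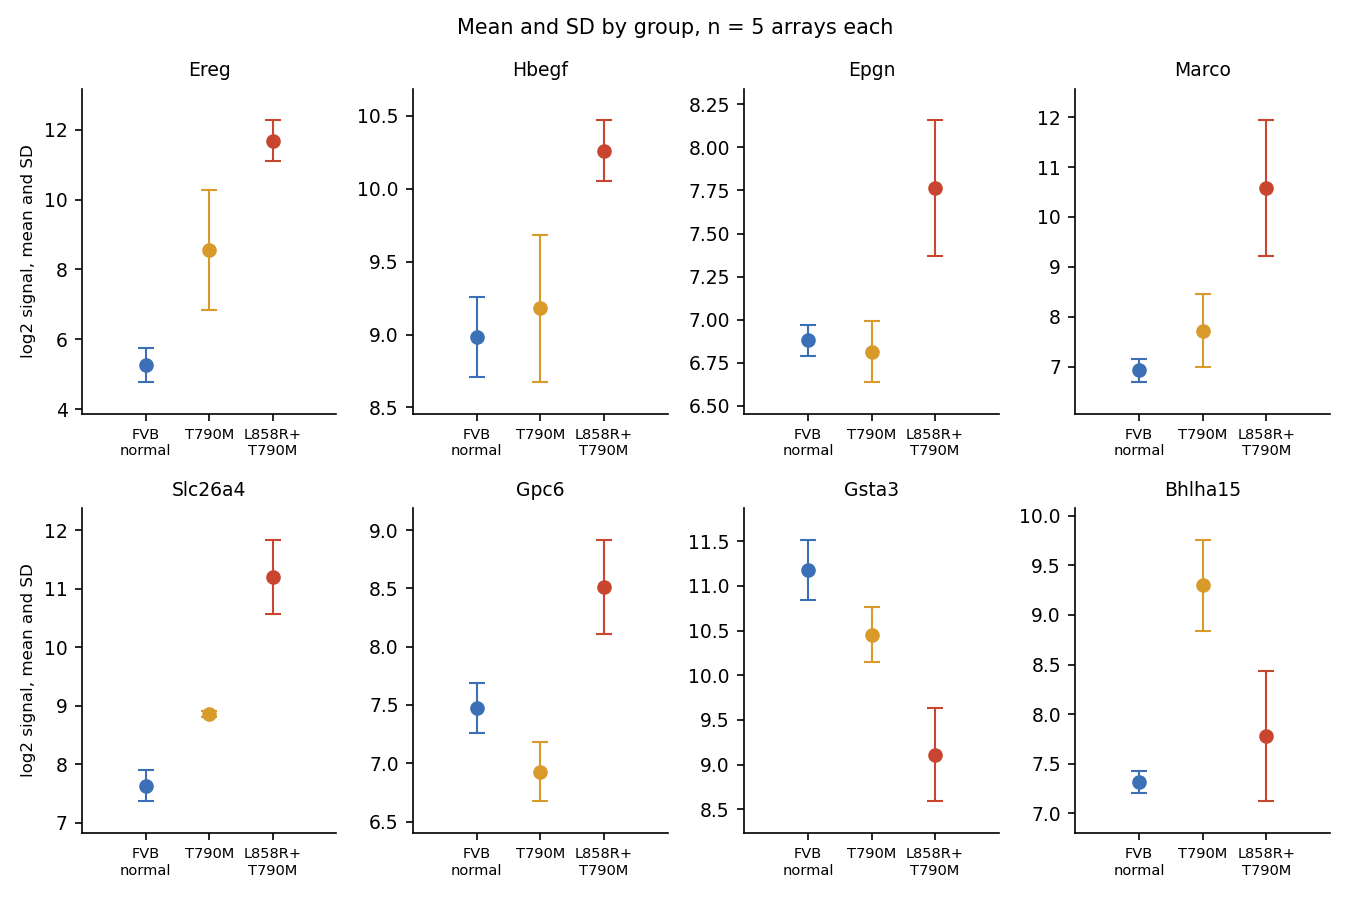
Mean log2 signal with SD (bars) of 8 genes in FVB normals, T790M tumours and L858R+T790M tumours (n = 5 each). Ereg, Hbegf, Epgn, Marco, Slc26a4 and Gpc6 are higher in L858R+T790M than in T790M tumours, and Gsta3 and Bhlha15 lower.

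The change from normal lung in L858R+T790M tumours was also set against that in L858R tumours, each with the normals of its own strain label. Of 18193 genes 13 differed (0.0715%), 6 higher (0.0330%) and 7 lower (0.0385%). Gpc6 was among them (2.08 ± 0.26, adjusted p = 4.70e-04), as were the gastric lipase Lipf (-1.64 ± 0.24, adjusted p = 0.00568) and the developmental factor Eya1 (-1.84 ± 0.30, adjusted p = 0.0128). Eya1 read 6.83, 7.17, 7.06, 6.92 and 6.66 in FVB normals and 5.97, 5.76, 6.58, 6.37 and 6.28 in L858R+T790M tumours, a fall of 0.74 ± 0.20. Those 3 kept their call when each array was left out, and Gpc6 and Eya1 lost it with the median over their probe sets, where the fall of Eya1 from normal lung was -0.30 (adjusted p = 0.058). The count ranged from 5 to 25 when single arrays were left out. It was 5 without FVB normal replicate 4 or mixed normal replicate 3, 6 without FVB normal replicate 2 or 5, L858R replicate 1, L858R+T790M replicate 1 or mixed normal replicate 1 or 5, 7 without FVB normal replicate 1 or mixed normal replicate 4, 20 without L858R replicate 3, and 21 and 25 without L858R+T790M replicates 2 and 4.

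Genes with several probe sets tell how far 1 probe set stands for its gene. Of 9010 such genes 2680 had at least 2 probe sets called in tumours against normals, and 83 of those had calls in opposite directions. The widest gaps were in Itgb1 (0.25 and -3.23), Enho (0.30 and -2.36), Map3k20 (0.77 and -1.41), Epb41l5 (0.76 and -1.28) and Auts2 (1.49 and -0.43). Integrin beta 1, a partner of most integrins of the list above, has no single direction here.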

How the data were processed

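Biotin-labelled RNA of 24 lung samples was hybridised to Affymetrix mouse whole-genome arrays, 1 array a sample. The deposited table holds log2 values that the authors made with RMA (background correction, quantile normalization and probe set summary), per the submitters' processing notes. No version of RMA is given in the sources used here, and detection calls were not used here. Log2 values compress changes near the top and bottom of the signal range. Of 45101 probe sets, 64 were controls, 34945 had 1 gene in the platform annotation, 932 several and 9160 none, and symbols were updated through Entrez identifiers for 34741. The brightest probe set stood for each of 18193 genes (9010 had several).

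A mean per group was fitted over all 24 arrays with limma 3.58.1 in R 4.3.3 (lmFit, eBayes with trend, 19 residual degrees of freedom, Benjamini-Hochberg), and genes with an adjusted p under 0.05 were called. The labels do not say whether arrays are separate animals. On simulated data for the comparison with FVB normals over 18193 genes, 89 of 100 log2 changes of 1 and 99 of 100 of 2 were recovered, with 14 of 202 calls false (6.93%). The simulated noise was independent between genes, with the same SD of a gene in every group. In the real arrays 78.3% of genes had the larger SD among tumours, so these rates need not hold there. The arrays and gene lists were chosen with earlier results of these data known. Besides list members, the text could name the 15 highest and 15 lowest called genes whose arrays did not overlap, the 8 highest and lowest between tumour groups, the 12 of largest and of relatively smallest tumour SD, the 2 ends of symbol families and the 5 widest probe set disagreements. The deviations of same-numbered tumours and normals correlated at -0.15 to 0.15, so the numbers were not used to pair them. Alternatives were other normalizations, probe set rules, filters, fits, a replicate block, all normals as controls, stricter thresholds and leaving out each array; their effect closes the text. Promoters were matched by symbol to RefSeq (GRCm38.p6).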

Additional observations from a re-analysis of the deposited data

Results flagged for a closer look

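Among the genes of the text, 41 of 670 groups of 5 arrays (6.12%) held 1 array far from the other 4: its gap to the nearest array, as a share of the group's range, reached Dixon's critical value of 0.71. Chance gives about 5%. Of 28 groups of list means 1 did. Values are log2 signals. Normal 1 lay above its group for Dkk2 (6.70, others 5.13 to 5.51, gap 0.758), Egln3 (7.86, others 6.63 to 6.69, gap 0.951), Ereg (6.09, others 4.95 to 5.27, gap 0.719) and Esrp1 (8.79, others 8.43 to 8.52, gap 0.750). The same array lay above also for Grhl2 (9.33, others 9.02 to 9.09, gap 0.774), Krt5 (8.55, others 8.04 to 8.07, gap 0.941), S100a14 (9.33, others 7.0 to 7.59, gap 0.747) and Sprr1a (8.75, others 6.85 to 7.23, gap 0.800). Normal 1 lay below its group for Adgre5 (12.43, others 12.86 to 13.03, gap 0.717), Ctsz (11.91, others 12.25 to 12.37, gap 0.739), Erbb4 (3.19, others 3.37 to 3.40, gap 0.857) and the mean of the Dlk1-Dio3 list (7.41, others 7.53 to 7.56, gap 0.800). Normal 2 lay below its group for Bhlhe40 (10.06, others 10.31 to 10.40, gap 0.735) and Marco (6.52, others 6.98 to 7.14, gap 0.742). Normal 3 lay below its group for Fgfr3 (11.38, others 11.55 to 11.61, gap 0.739) and Smox (8.92, others 9.02 to 9.04, gap 0.833). Normal 4 lay above its group for Tmem100 (12.68, others 12.36 to 12.43, gap 0.781). Normal 5 lay above its group for Ccl12 (6.53, others 5.79 to 5.99, gap 0.730), Fgfr2 (11.17, others 10.76 to 10.83, gap 0.829), Insr (9.84, others 9.63 to 9.68, gap 0.762) and Muc20 (8.40, others 8.15 to 8.22, gap 0.720). Normal 5 lay below its group for Col1a1 (8.72, others 9.36 to 9.60, gap 0.727), Ddit3 (9.38, others 9.79 to 9.85, gap 0.872), Dpt (11.14, others 12.11 to 12.33, gap 0.815) and Myc (7.32, others 7.50 to 7.56, gap 0.750).

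Tumour 1 lay above its group for Krt19 (12.69, others 12.08 to 12.24, gap 0.738) and Krt8 (13.80, others 13.28 to 13.43, gap 0.712). Tumour 2 lay above its group for Acaca (11.12, others 10.43 to 10.63, gap 0.71), Bcl2l1 (11.69, others 11.46 to 11.50, gap 0.826), Erbb4 (3.78, others 3.46 to 3.54, gap 0.750) and Insr (10.23, others 9.81 to 9.92, gap 0.738). The same array lay above also for Sec61a1 (12.44, others 12 to 12.10, gap 0.773) and Trib3 (9.81, others 9.01 to 9.24, gap 0.712). Tumour 2 lay below its group for Hbegf (9.89, others 10.30 to 10.38, gap 0.837). Tumour 3 lay above its group for Ms4a1 (8.63, others 6.75 to 7.24, gap 0.739). Tumour 4 lay above its group for Klf5 (11.30, others 10.88 to 10.96, gap 0.810). Tumour 5 lay above its group for Hmox1 (11.55, others 10.52 to 10.77, gap 0.757). Tumour 5 lay below its group for Fasn (12.31, others 12.73 to 12.83, gap 0.808), Lpcat1 (13.21, others 13.70 to 13.89, gap 0.721), Sftpa1 (14.46, others 14.67 to 14.71, gap 0.840) and Sftpd (14.23, others 14.36 to 14.41, gap 0.722). The same array lay below also for Slc12a2 (12.85, others 13.28 to 13.38, gap 0.811).

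Between the tumour genotypes, the log2 difference of L858R+T790M minus T790M passed the test for Asns -0.88, Bhlha15 -1.52, Cdkn2b 1.15, Elapor1 -1.62, Epgn 0.95, Ereg 3.13, Gpc6 1.59, Gsta3 -1.34, Hbegf 1.08, Ivl 2.50, Lif 0.88, Marco 2.85, Slc26a4 2.34 and Tnfrsf12a 1.30. The change from normal lung differed between L858R+T790M and L858R tumours for Eya1 -1.84, Gpc6 2.08 and Lipf -1.64.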

How the results depend on the processing

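The 6594 calls of L858R+T790M tumours against FVB normals ranged from 5834 to 6706 when single arrays were left out, and 5098 were called each time. They numbered 1540 with a change of at least 2-fold also required and 11911 when each annotated probe set was tested, and every other alternative run was within 1.5 times. The 739 calls among 1377 list genes stayed within 1.5 times under every alternative run for them. The Gapdh control difference was 0.034 and that of the Actb control 0.038. No limit on size was applied to the Gapdh difference when single arrays were left out. Of 286 called genes named in that comparison 269 were called under all of them, and 13 of 49 that were not called became so under at least 1. A limma fit to the L858R+T790M and FVB normal arrays only gave 7276 calls, but 7 named calls were lost. By limma adjusted p they were Fcgr1 (0.144), Cxcl11 (0.137), Cd274 (0.129), C1qa (0.101), Met (0.0718), Fcgr4 (0.0711) and Chga (0.0568). Egf, Ptgs2 and Sqle gained a call in that fit. Centring the arrays on their medians moved the median of all genes from 0.026 to 0.056, and the share of calls that were higher from 55.7% to 59.4%.

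The 289 calls against T790M tumours became 719 with array weights, 0 in a fit to those 10 arrays, 45 at an adjusted p under 0.01 and 52 at 2-fold, and 62 to 485 without single arrays. The 13 genes that set the L858R+T790M effect apart from the L858R effect became 22 after a further quantile normalization, 7 without the dimmest genes, 45 with array weights, 46 in a fit to the groups compared, 3 at an adjusted p under 0.01 and 5 to 25 without single arrays. The cause was not tested. With the replicate number as a block the 3 counts were 6539, 187 and 8, but the numbers do not pair the samples: same-numbered deviations correlated at 0.02, -0.15, 0.15, -0.01 and 0.02, and no sample correlated best with its own number. Under the block 1 named call was lost, that of Ly6d (1.67, adjusted p = 0.0562), and 3 were gained, Ptgs2 (-1.15, adjusted p = 0.0166), Il6 (1.44, adjusted p = 0.0313) and Col1a1 (0.75, adjusted p = 0.0483).

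Signals near the ends of the scale set limits: Sftpc lay near the top in all 10 arrays and Erbb4 near the bottom, where a log2 difference is compressed. Nodules were cut from lung and normals were lung pieces, so a change in a cell type's share and a change within its cells cannot be told apart.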

Other observations

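Genes of the secretory pathway and the unfolded protein response rose in 7 of 25 and fell in 1, where 20.2% of all genes rose. The protein disulphide isomerase Pdia6 rose by 0.71 ± 0.17, the stress sensor Ern1 (IRE1) by 0.55 ± 0.11 and the translocon subunit Sec61a1 by 0.46 ± 0.08. The chaperone Hspa5 (BiP) differed by -0.11 ± 0.12 (adjusted p = 0.52) and the factor Xbp1 by -0.04 ± 0.09 (adjusted p = 0.799). Of 14 goblet and mucin genes 2 rose and 1 fell: besides pendrin the membrane mucin Muc20 rose by 1.42 ± 0.20, and Muc16 fell by 1.48 ± 0.24. The secreted mucin Muc5ac differed by 0.11 ± 0.21 (adjusted p = 0.722) with normals at 7.13 to 7.56 and tumours at 7.31 to 7.93.

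Mast cell, basophil and eosinophil genes fell in 6 of 13 and rose in 1, led by the factor Gata2 (-2.21), which endothelium expresses too, the chymase Cma1 (-0.77) and the carboxypeptidase Cpa3 (-0.59). Sdc1, a proteoglycan of plasma cells and of epithelium, rose by 1.64 ± 0.10, while the immunoglobulin joining chain Jchain differed by -0.02 ± 0.90 (adjusted p = 0.992). Of 15 checkpoint genes 4 rose and 2 fell. Cd274 (PD-L1) read 8.73, 8.81, 9.09, 8.72 and 9.14 in normals and 10.66, 8.44, 9.27, 9.75 and 12.08 in tumours (1.14 ± 0.44), and Nt5e (CD73), which makes adenosine, 9.49, 9.76, 10.13, 8.84 and 9.42 against 11.58, 9.76, 10.69, 10.87 and 11.27 (1.31 ± 0.47). The call of Cd274 was lost without FVB normal replicate 1, 2, 3, 4 or 5 or L858R+T790M replicate 1, 4 or 5 (0.63 to 1.21, adjusted p = 0.0561 to 0.157), and that of Nt5e without FVB normal replicate 1, 4 or 5 or L858R+T790M replicate 1, 4 or 5 (1.12 to 1.30, adjusted p = 0.0576 to 0.0939). With all 10 normal lungs as the control group the call of Nt5e was lost too (0.85, adjusted p = 0.119). The count of rises was 2 without any 1 FVB normal or without L858R+T790M replicate 1 or 4, and 1 without replicate 5. Among drug transporters Abcc4 rose by 1.22 ± 0.19 and Abcb1a, a P-glycoprotein of endothelium, fell by 0.81 ± 0.21.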
